A study of Mus musculus with 6 samples.

Results

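NF-kB is a family of transcription factors, and the genes described here are 35 that make, regulate or respond to it: 5 subunits, 9 inhibitors and feedback regulators, 9 kinases and adaptors, and 12 target genes. They were chosen by name and read from a table of 27179 genes, in which all 35 were found. The table holds RNA-seq read counts of mouse leukaemia cells positive for green fluorescent protein, which were sorted as live cells from spleens (strain C57BL/6). The leukaemia line of both groups is A/E9a;NRASG12D;Ifnar1-/-: it carries the A/E9a fusion oncogene, NRAS with the G12D change, and no intact Ifnar1, the gene of a receptor chain for type I interferons. One group of 3 libraries came from mice given panobinostat, an inhibitor of histone deacetylases, for 3 days, and the other 3 came from mice given vehicle. The labels do not say whether the 3 libraries of a group are 3 animals, so each p-value covers the spread between libraries only, part of which may be technical. Whether the line is 1 clone is not given in the sources used here.

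In resting cells NF-kB dimers are held in the cytoplasm by inhibitors of the IkB family. Signals from TNF, interleukin-1 and Toll-like receptors activate a kinase complex that marks these inhibitors for destruction, after which p50 and RelA dimers enter the nucleus. A slower route stabilises the kinase NIK, encoded by Map3k14, and releases p52 and RelB. Many of the genes that NF-kB switches on encode its own inhibitors, so that the response limits itself, and in myeloid cells the pathway is best known for driving inflammatory cytokines.

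Library totals ran from 31989622 to 35962605 counts, and levels are given as CPM, the usual count relative to library size, here with sizes scaled by TMM factors. Libraries are named by group and column number. The labels do not say whether the number pairs a vehicle with a panobinostat library, and the main test did not pair them. Ifnar1 was counted at 35.7 to 48.0 CPM in the 6 libraries. Since both groups carry the knockout, and counts over a whole gene need not show a deleted part, this gene checks no label. The progenitor genes Gata2 and Myb were high in all 6 libraries, at 649 to 1112 and 402 to 588 CPM. Mpo, which encodes the granule enzyme myeloperoxidase, reached at most 0.422 CPM, and Ptprc, the pan-leukocyte marker CD45, was at 10.8 to 11.8 CPM with vehicle and 1.31 to 9.19 CPM with panobinostat. A pair of libraries stood apart from the rest. The summed level of 6 megakaryocyte markers was 173 CPM in vehicle library 1 and 7.37 and 6.41 CPM in the other vehicle libraries. The summed level of 9 mast cell and basophil markers was 2422 CPM in panobinostat library 1 and 832 to 979 CPM in the other 5 libraries. The summed level of 7 erythroid markers was 11465, 6936 and 3871 CPM with vehicle and 1422, 8733 and 11168 CPM with panobinostat, highest in vehicle library 1 and lowest in panobinostat library 1. The members' fits are given with and without these libraries where they rest on them.

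Across all 6 libraries, edgeR's quasi-likelihood test called 0 of the 31 members it could test, and 0 of 13207 genes in all (0% of genes; adjusted p under 0.05 by Benjamini and Hochberg's method). Without adjustment, 1 member (Ccl5) of 31 had a p under 0.05, which is 3.23%, beside 2.28% of all genes. The members' estimates were split, 16 higher and 15 lower in panobinostat libraries, with a median log2 fold change of 0.06 beside 0.00 for all genes tested. No member had all panobinostat libraries above all vehicle libraries (3.79% of all genes did), and 2 members, Chuk and Cd83, had all below (3.63% of all genes). DESeq2 called 9 genes (0.0681% of those tested), 7 higher and 2 lower, and 0 of them were members. With 3 libraries against 3, the smallest p of an exact two-sided permutation test of a single gene is 0.1.

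What did vary was the vehicle group itself. In 12 of the 31 members vehicle library 1 had the highest level of all 6 libraries while vehicle libraries 2 and 3 had the lowest levels, which is 38.7% of members and 10.01% of all genes tested. These were Nfkb2, Rel, Relb, Nfkbid, Nfkbie, Bcl3, Tnip1, Ikbkb, Traf1, Icam1, Tnf and Il6. The pattern was noticed after the values had been seen and was not tested. The 3 panobinostat libraries lay between the vehicle extremes for these genes. For 8 members the 6 libraries stayed within 1.3-fold of each other (Rela, Nfkbib, Cyld, Chuk, Traf2, Birc2, Tnfaip2 and Sod2), and for 15 the highest library was at least 2-fold above the lowest.

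**Figure D1:**
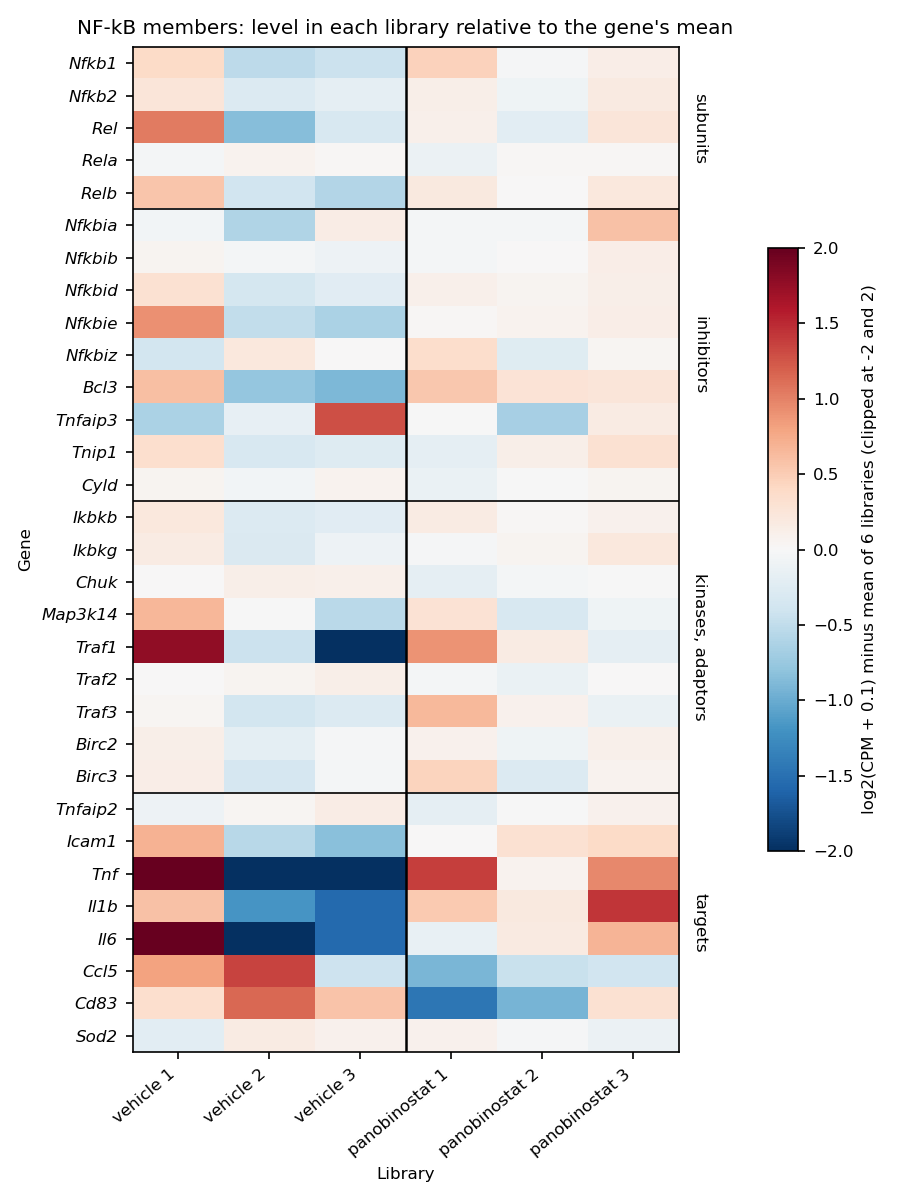
Levels of the 31 members that could be tested, by role (rows), in the 6 libraries (columns), as log2(CPM + 0.1) minus the gene's mean over the 6 libraries, with colours clipped at -2 and 2. Vehicle library 1 stands above vehicle libraries 2 and 3 for Tnf, Il6, Traf1, Bcl3, Nfkbie and Icam1, with the panobinostat libraries between them.

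Some of these promoters carry the sequence that NF-kB dimers bind, and 5 of them are shown because the genes are feedback inhibitors, a subunit or a cytokine whose levels are described next. Each is the 150 bases before a transcription start site, from the RefSeq promoter table of GRCm38.p6, written 5′ to 3′ on the gene's own strand, with matches to the kappa B consensus on either strand in capitals. Overlapping matches form a single run of capitals. Nfkb2 is shown at chr19:46304587-46304736 (+ strand), one of its annotated start sites. Nfkbie is at chr17:45555550-45555699 (+), Nfkbia at chr12:55492648-55492797 (-), Tnfaip3 at chr10:19015411-19015560 (-) and Il6 at chr5:30012964-30013113 (+).
Nfkb2: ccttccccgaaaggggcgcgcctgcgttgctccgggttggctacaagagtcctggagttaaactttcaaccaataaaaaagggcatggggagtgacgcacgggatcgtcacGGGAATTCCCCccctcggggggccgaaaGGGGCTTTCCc
Nfkbie: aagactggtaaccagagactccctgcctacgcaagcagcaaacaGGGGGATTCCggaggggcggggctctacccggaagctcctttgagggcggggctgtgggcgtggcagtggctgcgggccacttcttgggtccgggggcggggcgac
Nfkbia: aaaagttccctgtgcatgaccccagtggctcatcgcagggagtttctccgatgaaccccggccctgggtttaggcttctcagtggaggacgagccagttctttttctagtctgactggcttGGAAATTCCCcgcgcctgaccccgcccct
Tnfaip3: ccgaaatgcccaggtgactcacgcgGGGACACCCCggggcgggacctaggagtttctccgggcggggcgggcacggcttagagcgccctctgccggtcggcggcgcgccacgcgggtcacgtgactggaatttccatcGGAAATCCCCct
Il6: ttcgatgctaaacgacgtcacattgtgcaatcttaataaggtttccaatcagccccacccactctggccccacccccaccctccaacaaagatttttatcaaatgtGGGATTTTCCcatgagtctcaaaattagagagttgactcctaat

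The table held promoter windows for 27 of the 35 members, each of 300 bases from 250 before to 50 after a start. Of these genes 13 (48.1%) had a match to the 10-base kappa B consensus in at least 1 window, beside 1388 of 27025 genes (5.14%) and 1480 of 32851 windows (4.51%) in the whole table. A looser pattern that takes in the consensus, GGG and CC with any 5 bases between them, was found on either strand in 22 of the 27 members (81.5%) and in 53.5% of all genes. By role, matches to the consensus were found in 7 of 8 inhibitors and feedback regulators, 2 of 3 subunits (Nfkb2 and Rel), 3 of 8 targets (Il6, Cxcl2 and Sod2) and 1 of 8 kinases and adaptors (Traf3). Among members with the pattern led by vehicle library 1, 7 of 10 had a match, and among the other tested members 5 of 15. That pattern was noticed in these same values. It also takes in Nfkbid, Nfkbie, Bcl3 and Tnip1 from the role with the most matches, so this contrast is description only and was not tested. All members are known NF-kB genes, so a share above that of all genes describes how they were picked. A match describes letters in a window and does not show that a factor was bound in these cells. Nfkb1, Relb, Nfkbiz, Ikbkb, Ccl4, Ccl5, Cd40 and Cd83 were not in the table.

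The 5 subunit genes differed widely in level. Nfkb1 (chr3, 135584655 to 135691969) encodes p105, the precursor of p50. Its level was 329, 174 and 186 CPM in vehicle libraries 1 to 3 and 344, 247 and 276 CPM with panobinostat 1 to 3. Both libraries numbered 1 were high, the groups overlapped, and the log2 fold change was 0.33 (SE 0.277, unadjusted p = 0.276, adjusted p = 0.998 by edgeR's quasi-likelihood test). Nfkb2 (chr19, 46300994 to 46312400), which encodes p100, the precursor of p52, was at 48.2, 33.6 and 36.2 CPM with vehicle and 44.3, 38.6 and 46.4 CPM with panobinostat. Its group means of 39.4 ± 7.77 and 43.1 ± 4.04 CPM (SD, n = 3) differed by less than the spread within vehicle. Rela (chr19, 5637442 to 5648134), which encodes the transactivating subunit p65, was the steadiest subunit gene. It was at 134, 145 and 139.8 CPM with vehicle and 127, 141 and 141 CPM with panobinostat, a log2 fold change of -0.04 (SE 0.0925).

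Relb and Rel were much lower. Relb, the partner of p52, was at 13.7, 7.17 and 6.18 CPM with vehicle and 10.7, 9.42 and 10.8 CPM with panobinostat, and vehicle library 1 was again the highest. Rel, which encodes c-Rel and is best known from lymphocytes, was at 2.62, 0.631 and 0.957 CPM with vehicle and 1.31, 1.04 and 1.45 CPM with panobinostat. Their log2 fold changes were 0.19 (SE 0.322) and -0.15 (SE 0.567), and neither passed the test. Over the 5 subunits, 3 estimates were higher and 2 lower with a median of 0.13 on the log2 scale, and 0 were called.

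Levels of different genes were compared per kilobase of exon, which removes the effect of transcript length on counts. Over merged exons of all annotated transcripts, the mean level over 6 libraries was 44.9 CPM per kb for Rela (range 41.2 to 47.2), 21.5 for Nfkb1 (14.5 to 28.6), 8.99 for Nfkb2 (7.34 to 10.5), 2.49 for Relb (1.59 to 3.54) and 0.179 for Rel (0.0845 to 0.351). The ranges of neighbours in this order did not overlap. The order of the first pair depended on the length used. Over the longest principal transcript, Nfkb1 averaged 63.0 CPM per kb (42.4 to 83.6) and Rela 50.7 (46.6 to 53.4), so that their ranges overlapped, whereas Nfkb2 at 13.1, Relb at 4.38 and Rel at 0.179 kept their places. Subunits of both the fast route (Rela, Nfkb1) and the slower route (Nfkb2, Relb) were thus counted in every library, with Rel at the bottom.

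**Figure D2:**
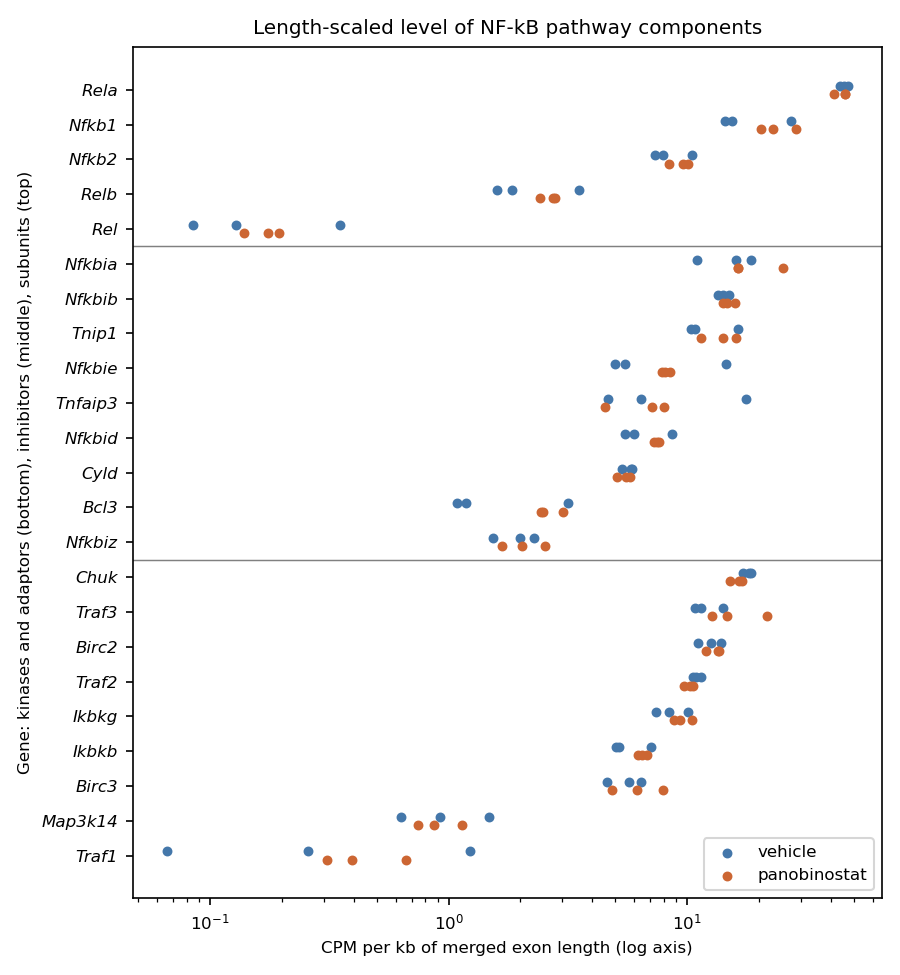
Level per kilobase of merged exon (CPM per kb, log axis) in each library for subunits, inhibitors and feedback regulators, and kinases and adaptors. Among subunits Rela averages 44.9 and Rel 0.179 CPM per kb. Nfkb1 lies below Rela here and above it, with overlapping ranges, over the longest principal transcript. Traf1, Rel and Tnfaip3 show a wide spread within the vehicle group.

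Among the inhibitors, Nfkbia (chr12, 55489409 to 55492647) encodes IkB alpha, the fast feedback inhibitor. It was at 25.9, 17.7 and 29.9 CPM with vehicle and 26.3, 26.2 and 40.7 CPM with panobinostat. Only panobinostat library 3 lay above all vehicle libraries, and the log2 fold change of 0.34 (SE 0.262, unadjusted p = 0.236) did not pass the test. Nfkbib, encoding IkB beta, was steady at 29.3 to 32.6 CPM with vehicle and 30.6 to 34.4 CPM with panobinostat. Nfkbie (chr17, 45555700 to 45563169), encoding IkB epsilon, another inhibitor that NF-kB induces, did not share this steadiness. Its level was 44.4, 16.7 and 15.1 CPM with vehicle and 23.9, 24.6 and 25.8 CPM with panobinostat. The panobinostat libraries lay close together, between vehicle library 1 and the other vehicle libraries, and the group means of 25.4 ± 16.5 and 24.8 ± 0.971 CPM (SD, n = 3) were nearly equal.

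The atypical IkB proteins act in the nucleus with p50 or p52. Bcl3 (chr7, 19808462 to 19822824) was at 7.80, 2.93 and 2.70 CPM with vehicle and 7.48, 6.18 and 6.02 CPM with panobinostat. Vehicle library 1 lay just above the panobinostat libraries, while vehicle libraries 2 and 3 lay below all others, and the log2 fold change was 0.55 (SE 0.447, unadjusted p = 0.26). Nfkbid, encoding IkBNS, also had vehicle library 1 highest and the other vehicle libraries lowest, over a smaller span, with 20.2, 12.9 and 14.1 CPM with vehicle and 17.6, 17.0 and 17.9 CPM with panobinostat. Nfkbiz, encoding IkB zeta, did not share it: its lowest vehicle level, 7.74 CPM, was in library 1, its other vehicle levels were 11.5 and 10.04 CPM, and the panobinostat levels were 12.7, 8.43 and 10.2 CPM.

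Tnfaip3 (chr10, 19000910 to 19015410) encodes A20, a ubiquitin-editing enzyme that shuts off signalling from TNF receptors, and it set a different vehicle library apart. It was at 33.5, 46.1 and 127 CPM with vehicle and 51.7, 32.8 and 58.0 CPM with panobinostat. Vehicle library 3 was far above the other 5, the log2 fold change was -0.54 (SE 0.521, unadjusted p = 0.341), and without vehicle library 3 it was 0.26. Tnip1, encoding an A20-binding partner, was at 58.1, 36.6 and 38.3 CPM with vehicle and 40.4, 49.8 and 56.7 CPM with panobinostat, with its peak in vehicle library 1. Cyld, a deubiquitinase that restrains the pathway, was at 71.5 ± 3.62 CPM with vehicle and 68.9 ± 4.50 CPM with panobinostat (SD, n = 3). Of these 9 inhibitors and feedback regulators, 6 estimates were higher and 3 lower, with a median log2 fold change of 0.10 and 0 called.

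Per kilobase of merged exon, Nfkbia at 17.3, Nfkbib at 14.5 and Tnip1 at 13.2 CPM per kb were the highest of this group on average. Nfkbie at 8.24, Tnfaip3 at 8.06, Nfkbid at 7.09 and Cyld at 5.58 CPM per kb came next, and Bcl3 at 2.23 and Nfkbiz at 2.01 CPM per kb were lowest. Neighbours within each of these 3 sets were not separated beyond their spread over libraries. The first and second sets overlapped too: Tnip1 ranged from 10.3 to 16.4, Nfkbie from 4.96 to 14.6 and Tnfaip3 from 4.54 to 17.6 CPM per kb. Bcl3 and Nfkbiz reached at most 3.15 and 2.54 CPM per kb, below the second set. Over the longest principal transcript the order within sets changed, with Tnfaip3 at 13.2 and Nfkbie at 10.3 CPM per kb on average.

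The genes of the kinase complex that frees NF-kB were counted at 59.8 CPM or more in every library. Of them, only Chuk stayed within 1.3-fold over all libraries. Ikbkb, encoding the catalytic kinase IKK beta, was at 135, 96.5 and 99.3 CPM with vehicle and 129.8, 118 and 124 CPM with panobinostat, with vehicle libraries 2 and 3 lowest. Ikbkg, encoding the regulatory subunit NEMO, was at 81.9, 59.8 and 67.9 CPM with vehicle and 71.7, 75.9 and 85.0 CPM with panobinostat. Chuk, encoding IKK alpha, the kinase needed by the slower route, was one of the pair of members whose groups did not overlap. Its level was 87.5, 94.6 and 92.9 CPM with vehicle and 77.0, 84.3 and 86.4 CPM with panobinostat. The gap between the groups was about 1 CPM against a spread within groups of 3.72 and 4.92 CPM (SD, n = 3), and the log2 fold change of -0.15 (SE 0.0923, unadjusted p = 0.151) did not pass the test.

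The slower route is gated by Traf2, Traf3, Birc2 and Birc3, whose products hold NIK at a low level. Traf3 was at 104, 79.2 and 83.9 CPM with vehicle and 159.6, 108 and 93.5 CPM with panobinostat. Its highest level was in panobinostat library 1, and the log2 fold change was 0.43 (SE 0.225, unadjusted p = 0.0987), which became 0.18 without that library and 0.30 without both libraries numbered 1. Traf2 was at 54.0 to 58.4 CPM with vehicle and 49.4 to 54.1 CPM with panobinostat. Birc2 and Birc3, encoding the ligases cIAP1 and cIAP2, had log2 fold changes of 0.06 (SE 0.118) and 0.18 (SE 0.212). Map3k14 was low, at 9.70, 6.02 and 4.15 CPM with vehicle and 7.48, 4.86 and 5.69 CPM with panobinostat, and averaged 0.964 CPM per kb beside 17.1 for Chuk and 14.3 for Traf3.

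Traf1 (chr2, 34941750 to 34961812), an adaptor that NF-kB itself induces, had the widest spread among the kinases and adaptors. It was at 10.8, 2.27 and 0.580 CPM with vehicle and 5.87, 3.49 and 2.73 CPM with panobinostat, an 18.7-fold range over the 6 libraries. The group means of 4.56 ± 5.50 and 4.03 ± 1.64 CPM (SD, n = 3) differed by less than the spread within vehicle. Over all 9 kinases and adaptors, 5 estimates were higher and 4 lower, the median log2 fold change was 0.06, and 0 were called.

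The targets split into a few steadily counted genes and many near the limit of counting. Tnfaip2, an NF-kB-induced gene of myeloid and endothelial cells, was at 233, 257 and 278 CPM with vehicle and 221, 249 and 266 CPM with panobinostat. Its mean of 50.2 CPM per kb was the highest of all 35 members over merged exons. Its range of 44.2 to 55.7 overlapped that of Rela, at 41.2 to 47.2. Over the longest principal transcript it averaged 66.6 CPM per kb, and its range of 58.6 to 73.8 lay within that of Nfkb1, at 42.4 to 83.6. Sod2, encoding mitochondrial superoxide dismutase, was at 96.0 ± 12.5 CPM with vehicle and 93.5 ± 6.61 CPM with panobinostat (SD, n = 3). Icam1 (chr9, 21015940 to 21028814), encoding an adhesion molecule bound by leukocyte integrins, had vehicle library 1 as its highest and vehicle libraries 2 and 3 as its lowest. It was at 44.3, 18.5 and 15.1 CPM with vehicle and 27.3, 33.8 and 35.6 CPM with panobinostat, a log2 fold change of 0.31 (SE 0.411, unadjusted p = 0.476).

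Tnf (chr17, 35199367 to 35202007), the cytokine that is both an inducer and a target of NF-kB, had 541, 19 and 17 counts with vehicle and 303, 118 and 211 counts with panobinostat. These correspond to 17.1, 0.545 and 0.493 CPM and to 8.42, 3.32 and 6.26 CPM. Vehicle library 1 was the highest of all 6, the other vehicle libraries were the lowest, and the vehicle level in library 1 was 32.9 times the mean of the other vehicle libraries. The group means were therefore almost the same, 6.04 ± 9.57 and 6.00 ± 2.56 CPM (SD, n = 3), with a log2 fold change of -0.01 (SE 1.33, unadjusted p = 0.995). Il6 (chr5, 30013114 to 30019975), encoding interleukin-6, had 172, 1 and 4 counts with vehicle and 17, 22 and 31 counts with panobinostat. Again vehicle library 1 was highest and the other vehicle libraries lowest, and the log2 fold change of -1.46 (SE 1.57, unadjusted p = 0.385) rests on that library. Il1b, encoding interleukin-1 beta, had 23, 5 and 3 counts with vehicle and 25, 19 and 47 counts with panobinostat, a log2 fold change of 1.46 (SE 0.848, unadjusted p = 0.134).

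**Figure D3:**
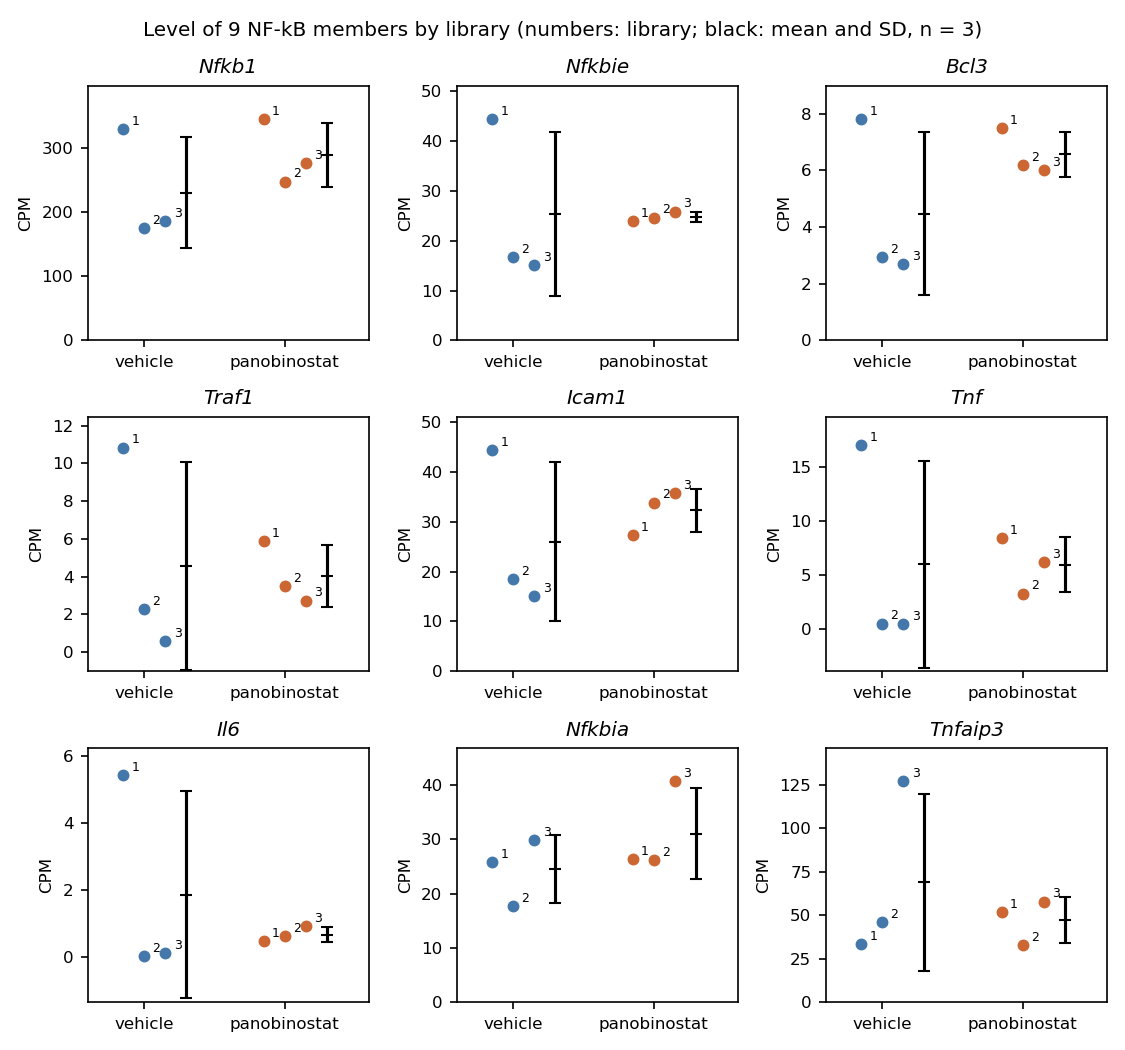
Levels (CPM) of 9 members in each library, with mean and SD per group (n = 3). For Tnf, vehicle library 1 is at 17.1 CPM, the other vehicle libraries at 0.545 and 0.493, and the panobinostat libraries at 3.32 to 8.42. Tnfaip3 has its high value of 127 CPM in vehicle library 3 instead.

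A second set of targets had lower estimates in panobinostat libraries, at few counts. Ccl5, encoding a chemokine of T cells and macrophages, had 36, 60 and 15 counts with vehicle and 10, 15 and 15 counts with panobinostat. Its means of 1.1 ± 0.644 and 0.381 ± 0.0904 CPM (SD, n = 3) gave a log2 fold change of -1.52 (SE 0.57, unadjusted p = 0.0352, adjusted p = 0.998 by edgeR's quasi-likelihood test). Cd83, a surface protein of mature dendritic and activated B cells, had 26, 53 and 34 counts with vehicle and 6, 10 and 27 counts with panobinostat. On the CPM scale its groups did not overlap, with a lowest vehicle level of 0.821 and a highest panobinostat level of 0.801, and the log2 fold change was -1.41 (SE 0.637, unadjusted p = 0.0659).

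Markers of lymphocytes had lower estimates alongside these targets. All 11 B cell and plasma cell markers had lower estimates in panobinostat libraries, and their summed level was 32.2, 74.9 and 39.0 CPM with vehicle and 6.14, 13.9 and 35.05 CPM with panobinostat. All 10 T cell markers also had lower estimates, with sums of 12.4, 13.8 and 9.75 CPM with vehicle and 2.20, 5.68 and 11.2 CPM with panobinostat. Without both libraries numbered 1, the log2 fold changes of Cd3d and Trac were 0.087 and 0.037, and the other T cell markers stayed lower. All 11 B cell and plasma cell markers stayed lower in that fit, with Cr2 at -0.019. The B cell factor Pax5 and the T cell genes Cd8b1 and Cd5 were at 0 counts in panobinostat library 1, where Cd83 was lowest. Monocyte and macrophage markers summed to 20.0 to 27.8 CPM with vehicle and 13.8 to 31.6 CPM with panobinostat, with 8 of 11 tested lower. Cd14, too low to test, had 2, 4 and 0 counts with vehicle and 18, 8 and 4 counts with panobinostat. On the CPM scale all its panobinostat libraries lay above vehicle. Itgam and Adgre1 of the same list had all panobinostat libraries below vehicle. Itgam had 21, 17 and 10 counts with vehicle and 2, 6 and 2 counts with panobinostat. Its log2 fold change was -2.30 (SE 0.629, unadjusted p = 0.00958, adjusted p = 0.998 by edgeR's quasi-likelihood test). The part of such cells in the values of Ccl5 and Cd83 was not tested. In sorted bulk cells, fewer cells of a type and less RNA per cell cannot be told apart.

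The remaining 4 members were too low to test, with at most 19 counts and 0.545 CPM in any library. Cd40, a receptor of B cells and antigen-presenting cells, had 1, 19 and 18 counts with vehicle and 4, 9 and 6 counts with panobinostat, so that here vehicle library 1 was the lowest. The chemokine genes Ccl3 and Ccl4 had 0 to 8 counts, and their RefSeq spans overlap on chr11 (83647843 to 83649378 and 83648624 to 83664683), so their counts are uncertain. Cxcl2, a neutrophil chemokine, had 12 counts in panobinostat library 2 and 0 to 2 in the others. A library with 0 counts allows up to 3, which is 0.0834 to 0.0948 CPM in these libraries, for counting error only. Among the 8 targets tested, 2 estimates were higher and 6 lower, with a median log2 fold change of -0.05 and 0 called. The sign of this median was not stable: it was 0.23 under limma-voom and 0.22 with a replicate block, and -0.33 without panobinostat library 1.

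Since vehicle library 1 set the spread of so many members, the comparison was repeated without it, as 1 of the planned fits that leave out each library. Then 21 of 32 tested members had higher estimates in panobinostat libraries with a median log2 fold change of 0.28, beside -0.01 for all genes. For the 12 members with the pattern led by vehicle library 1, a higher estimate in this fit follows from that pattern. The count and the median therefore partly restate it and are description only. The test called 1 member, Tnf, and in all it called 268 of 13369 genes higher (2.005%) and 56 lower (0.419%). Tnf had a log2 fold change of 3.51 (SE 0.499, adjusted p = 0.0351 by edgeR's quasi-likelihood test), set against 19 and 17 counts in the remaining vehicle libraries. Nfkbie at 0.63 (SE 0.11, adjusted p = 0.0538), Icam1 at 0.93 (SE 0.164, adjusted p = 0.055) and Bcl3 at 1.21 (SE 0.22, adjusted p = 0.0596) lay just outside the threshold. Nfkb1 at 0.67, Il1b at 2.87, Il6 at 3.14, Relb at 0.61 and Traf1 at 1.49 had adjusted p from 0.0973 to 0.283. Tnfaip3 remained lower in estimate, at -0.88 (SE 0.461, adjusted p = 0.35).

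Panobinostat library 1 stood apart too, so the fit was also made without both libraries numbered 1, which left 2 libraries a group. That fit called 8 of 32 members higher (25.0%) and 0 lower, while it called 974 of 13239 genes higher (7.36%) and 616 lower (4.65%). The members called were Icam1 at a log2 fold change of 1.04 (adjusted p = 0.00618), Tnf at 3.19 (0.00709), Nfkbie at 0.66 (0.0171), Nfkb1 at 0.53 (0.0213), Bcl3 at 1.11 (0.0251), Tnip1 at 0.50 (0.0336), Il6 at 3.34 (0.0355) and Il1b at 3.01 (0.0456). By role these were 1 of 5 subunits, 3 of 9 inhibitors and feedback regulators, 0 of 9 kinases and adaptors, and 4 of 9 tested targets. The values for Il6 and Il1b are set against 1 and 4 counts and against 5 and 3 counts. For members with the pattern led by vehicle library 1, the direction in this fit again follows from that pattern. These calls depend on leaving out libraries already seen to stand apart, and with 3 vehicle libraries the data do not show which vehicle level is typical.

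**Figure D4:**
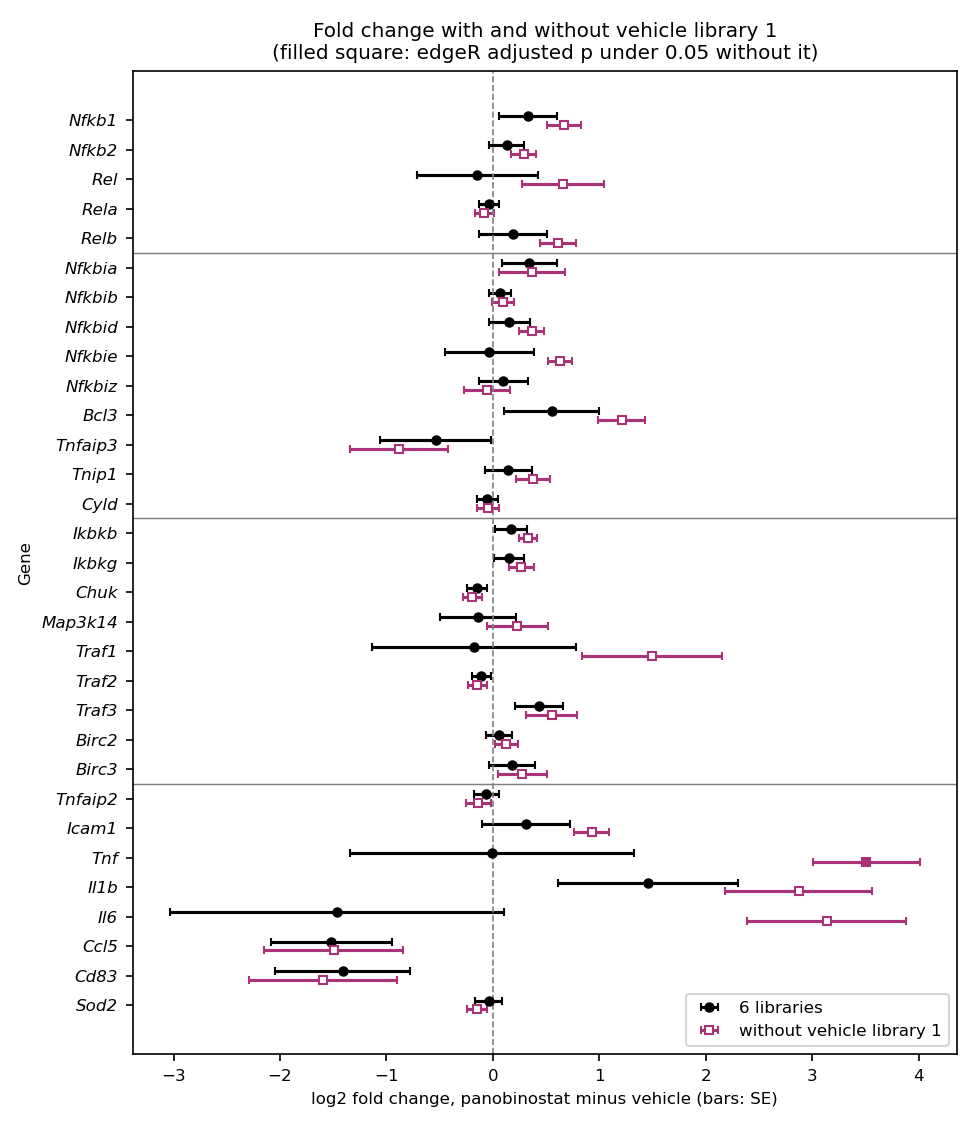
Log2 fold change of each tested member, panobinostat against vehicle, with its SE, from all 6 libraries and without vehicle library 1. A filled square marks an adjusted p under 0.05, which only Tnf reached, in the fit without vehicle library 1. For Tnf the estimate goes from -0.01 to 3.51 and for Nfkbie from -0.03 to 0.63, while Rela stays near 0.

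Megakaryocyte markers also had vehicle library 1 above the other vehicle libraries. Over the 6 markers the summed level was 173, 7.37 and 6.41 CPM with vehicle and 14.6, 79.6 and 111 CPM with panobinostat, and Itga2b alone was at 149, 3.99 and 2.90 CPM and at 13.0, 54.5 and 85.9 CPM. Gp1bb was at 0 counts in vehicle libraries 2 and 3. Single markers of other lists did so too. Fcer1a, a mast cell receptor chain, was at 60.8, 4.82 and 2.99 CPM with vehicle and 27.4, 33.1 and 30.4 CPM with panobinostat, and the progenitor gene Meis1 was at 17.8, 0.258 and 0.116 CPM with vehicle and 0.500 to 8.24 CPM with panobinostat. The mast cell protease gene Cma1 at 84.5, 5.71 and 2.15 CPM, Cd34 at 4.20, 0.430 and 0.348 CPM and the globin gene Hbb-bs at 2790, 779 and 398 CPM had the same vehicle order, though panobinostat library 1 exceeded vehicle library 1 for Cma1 and Cd34. The part of megakaryocyte, mast cell, erythroid or progenitor transcripts in the members' values was not tested. Dendritic cell markers, at 46.9 to 63.1 CPM with vehicle and 54.4 to 63.2 CPM with panobinostat, and granulocyte markers, at 0.361 to 4.70 CPM, did not set vehicle library 1 above the other libraries by more than the spread among them. The dendritic cell sum was mostly Bst2 and Tcf4, which averaged 36.8 and 17.5 CPM. Itgax and Xcr1 averaged 0.631 and 0.329 CPM, with all panobinostat libraries below vehicle.

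The wider pathway was read from 97 further genes in 4 lists, of which 73 could be tested. Estimates were higher for 34 and lower for 39, with a median log2 fold change of -0.01, 0 called and 2 with an unadjusted p under 0.05 (2.74%, beside 2.28% of all genes). The pattern led by vehicle library 1 was found in 12 of the 73 (16.4%).

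Of 19 receptors, 13 could be tested, with 4 higher and 9 lower estimates and a median log2 fold change of -0.84. This median rested on receptors at low levels, being -0.082 over those that average 1 CPM or more, and it was -1.51 without panobinostat library 3. Il1rl1, the interleukin-33 receptor known from mast cells, was the highest, at 759.6, 1017 and 1218 CPM with vehicle and 1203, 845 and 1009 CPM with panobinostat, with overlapping groups. Il33 itself had 0 counts in all 6 libraries. Il1r1, the interleukin-1 receptor, was at 50.4, 12.3 and 15.3 CPM with vehicle and 18.5, 22.1 and 28.5 CPM with panobinostat, again with vehicle library 1 on top and the others lowest. Its partner Il1rap had the opposite order in vehicle, at 11, 21.4 and 22.9 CPM, with 13.9 to 17.7 CPM with panobinostat. The receptors with the smallest p were low: Tnfrsf13c, the B cell receptor for BAFF, was at 1.01 to 2.70 CPM with vehicle and 0.111 to 0.801 CPM with panobinostat, a log2 fold change of -2.14 (SE 0.757, unadjusted p = 0.0283). Tlr9, a DNA sensor of B cells and dendritic cells, had -1.5 (SE 0.592, unadjusted p = 0.0424), beside the lower B cell markers given above. Ltbr, the lymphotoxin receptor, had 2.25 (SE 0.977, unadjusted p = 0.059) from a single high level of 2.25 CPM in panobinostat library 1 beside 0.225 and 0.415 CPM, and its estimate was 0.66 without that library.

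Only 4 of 10 ligands could be tested. Tnfsf14, encoding LIGHT, a ligand of the lymphotoxin receptor, was at 13.0, 0.115 and 0.174 CPM with vehicle and 3.61, 1.38 and 1.16 CPM with panobinostat, so that vehicle library 1 was the highest and the other vehicle libraries the lowest, as for Tnf. Ltb, encoding lymphotoxin beta, was at 2.41 to 4.93 CPM with vehicle and 0.945 to 3.65 CPM with panobinostat. Tnfsf12, encoding TWEAK, was at 2.15, 0.832 and 0.986 CPM and at 1.29 to 1.72 CPM, and Il1a did not pass 0.435 CPM in any library.

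The signalling list of kinases, adaptors and ubiquitin ligases was the best counted, with 34 of 36 tested, 16 higher, 18 lower and a median log2 fold change of 0.00 to 2 decimals. Tab2, an adaptor of the kinase TAK1, was at 314, 197 and 206 CPM with vehicle and 241 to 255 CPM with panobinostat. Rbck1 and Rnf31, components of the linear ubiquitin ligase, were at 196 to 252 and 56.9 to 63.5 CPM with vehicle and at 210.4 to 262 and 58.9 to 77.1 CPM with panobinostat. Irak1, a kinase downstream of Toll-like and interleukin-1 receptors, stayed between 166 and 192 CPM. Azi2, an adaptor of the kinase TBK1, was at 108 to 112 CPM with vehicle and 93.6 to 99.5 CPM with panobinostat, without overlap and with a log2 fold change of -0.19 (SE 0.0821, unadjusted p = 0.0536).

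Of 32 other target genes, 22 could be tested, with 13 higher and 9 lower estimates and a median log2 fold change of 0.14. Plek, encoding pleckstrin, a substrate of protein kinase C in platelets and leukocytes, was at 646, 144 and 97.7 CPM with vehicle and 466, 328 and 379 CPM with panobinostat. Without vehicle library 1 its log2 fold change went from 0.40 to 1.68 (adjusted p = 0.0336), and together with Gadd45b, a stress gene named after its values were seen, at 1.5 (adjusted p = 0.0377), it was called by edgeR's quasi-likelihood test. In that fit 19 of the 22 had higher estimates, with a median of 0.46, and 2 (9.09%) were called higher, beside 6505 of 13369 genes with higher estimates, a median of -0.01 and 2.005% called higher over all genes. Of the 22 genes, 3 had the pattern led by vehicle library 1, from which their direction in that fit follows. The immediate early gene Junb was low only in vehicle library 2, at 63.9 CPM beside 167 to 267 CPM in the other 5, and Ier3 had its lowest level there too, at 25.7 CPM beside 50.6 to 64.4 CPM. Klf6 overlapped between groups, at 133 to 241 and 159 to 201 CPM. Mmp9, encoding a matrix protease, was at 3.54 CPM in vehicle library 1 and at 0.0574 to 0.356 CPM in the other 5. Ccr7, a homing receptor of lymphocytes and dendritic cells, was at 1.11 to 1.69 CPM with vehicle and 0.0556 to 0.919 CPM with panobinostat, the same direction as Cd83 and Tnfrsf13c.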

How the data were processed

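The authors deposited whole-number read counts per gene with Entrez identifiers. Per the submitters' processing notes, the tools were HISAT2 2.1.0, Subread 2.0.0 with featureCounts, cutadapt 2.1, FastQC 0.11.6, bcl2fastq 2.17.1.14 and limma, and the build was mm10. The sources used here do not give their order, options, annotation or strand setting, so counts of overlapping genes are uncertain. Of 27179 identifiers, 25275 matched a symbol in RefSeq GRCm38.p6, which is the mm10 assembly, and coordinates are 1-based in it.

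The members and lists were chosen with earlier results of these data known. The test was edgeR 4.0.16 (R 4.3.3) with filterByExpr (minimum count 10), TMM factors and the robust two-sided quasi-likelihood F-test, with Benjamini-Hochberg adjustment over all genes tested. The SE is the size of the log2 fold change divided by the square root of F. The fit was also run on simulated counts with known fold changes. CPM per kb used exon lengths of GENCODE M21, merged over transcripts or, added after the data were seen, of the longest APPRIS principal transcript. All members are named. Of each other pathway list, the 3 tested genes highest in mean CPM and the 3 with the smallest p are named, except a gene that is not reported here, and other genes were chosen after their values were seen. Alternatives were DESeq2 1.42.0, limma-voom (limma 3.58.1), RLE, upper-quartile and no scaling factors, no filter, keeping genes that average 1 CPM or more, the fit without the robust option, a replicate block, an adjusted p under 0.01, each library left out, and both libraries numbered 1 left out.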

Additional observations from a re-analysis of the deposited data

How the results depend on the processing

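The 0 calls among members held under every alternative except where vehicle library 1 was left out. Over all genes, DESeq2 called 7 higher and 2 lower, leaving out both libraries numbered 1 gave 974 and 616 (8 members higher), and leaving out each library in turn gave 0 to 268 higher and 0 to 56 lower (0 to 1 members higher). The labels do not say whether the column numbers pair the libraries. Same-numbered deviations from the group means correlated at -0.139, 0.072 and -0.203, which with 3 libraries a group cannot settle it. The fit with the replicate block called 0 genes. Median log2 fold changes moved without both libraries numbered 1, to 0.28 for all members, 0.53 for subunits, 0.36 for inhibitors and 0.67 for pathway ligands. Ligands moved to -0.23 under limma-voom and -0.25 under the replicate block, and receptors to -0.082 with a mean of at least 1 CPM. Leaving out each library gave medians of 0.0055 to 0.28 for all members, -0.018 to 0.61 for subunits, 0.020 to 0.36 for inhibitors and feedback regulators, -0.018 to 0.27 for kinases and adaptors, -1.51 to -0.61 for pathway receptors, -0.99 to -0.021 for pathway ligands and -0.33 to -0.077 for targets. The targets' median was -0.26 with no filter and turned to 0.23 under limma-voom and 0.22 under the replicate block. Estimates changed sign as follows, and the cause was not tested. Without both libraries numbered 1, log2 fold changes were Rel 0.64, Nfkbie 0.66, Nfkbiz -0.22, Cyld 0.0047, Map3k14 0.045, Traf1 1.12, Tnf 3.19, Il6 3.34, Il1rl1 -0.28, Il1r1 0.86, Tnfsf14 3.09, Klf6 0.23 and Mmp9 0.91. Under limma-voom they were Rel 0.12, Nfkbie 0.16, Traf1 0.69, Tnf 1.79, Il6 1.14, Il1r1 0.12, Tnfsf14 1.49 and Klf6 0.024, and under the replicate block Rel 0.10, Nfkbie 0.16, Traf1 0.61, Tnf 1.80, Il6 1.23, Il1r1 0.13, Tnfsf14 1.43 and Klf6 0.025. With no filter the estimate for Tnf was 0.0059. With each library left out in turn, the log2 fold changes that changed sign ran from -0.018 to 0.13 for Birc2, -0.017 to 0.33 for Birc3, -0.51 to 0.72 for Il1r1, -0.15 to 0.20 for Il1rl1, -2.04 to 3.14 for Il6, -0.25 to 0.51 for Junb, -0.19 to 0.23 for Klf6, -0.38 to 0.23 for Map3k14, -2.92 to 0.49 for Mmp9, -0.30 to 0.63 for Nfkbie, -0.066 to 0.24 for Nfkbiz, -0.013 to 1.68 for Plek, -0.49 to 0.66 for Rel, -0.079 to 0.012 for Rela, -0.018 to 0.61 for Relb, -0.15 to 0.038 for Sod2, -0.054 to 0.30 for Tab2, -0.55 to 3.51 for Tnf, -0.14 to 0.012 for Tnfaip2, -0.88 to 0.26 for Tnfaip3, -0.013 to 0.75 for Tnfsf12, -1.80 to 3.78 for Tnfsf14 and -0.70 to 1.49 for Traf1. Depth limits the lowest members most, since Il6, Il1b, Ccl5, Cd83 and the 4 untested members rest on few counts in most libraries.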
